A study of Mus musculus with 7 samples.

Results

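The Notch pathway was described in bulk RNA of mouse cutaneous squamous cell carcinomas through 10 genes chosen by name: the receptors Notch1, Notch2 and Notch3, the ligands Jag1, Jag2 and Dll1, the target genes Hes1, Hes5 and Hey1, and Lfng, which modifies the receptors. All 10 genes were in the table of 55423 features, and 9 of them were among the 24433 genes that had at least 5 reads in at least 1 tumour and were tested. The study asked how overexpression of SOX2, a transcription factor of stem and progenitor cells, alters tumours that start from cells expressing involucrin (Ivl). In the 3 Ivl:BRAFV600E tumours used here, topical tamoxifen activated Ivl-CreERT2 in mice of 7 to 10 weeks and so turned on the oncogene BRAFV600E. The 3 Ivl:BRAFV600E-SOX2LSL tumours, called SOX2LSL tumours below, had the same Cre driver, oncogene, age range and tamoxifen, and also the Rosa26 LSL-SOX2-IRES-eGFP allele, which makes SOX2 and eGFP after recombination. The Ivl promoter is active in suprabasal keratinocytes and in some committed cells of the basal layer, so the alleles were induced in those cells, whereas the RNA came from whole tumours. The first group comprised a female, a female and a male, of which 2 also carried the tdRFP reporter, and the second a male, a male and a female. The tumours are called 1, 2 and 3 in these orders, which only name them, and each came from a separate mouse. Tumours were taken at the clinical endpoint. All of the SOX2LSL tumours were collected sooner after induction than any Ivl:BRAFV600E tumour, so genotype and time since induction cannot be told apart.

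In the Notch pathway a ligand on one cell, Delta-like or Jagged, binds a receptor on its neighbour, after which an ADAM protease and then gamma-secretase cut the receptor. The freed intracellular domain enters the nucleus, binds RBPJ with a Mastermind protein and switches on targets such as the Hes and Hey repressors and Nrarp. In the epidermis the pathway promotes the step from basal cell to spinous suprabasal cell, and loss-of-function mutations of the receptors are common in cutaneous squamous cell carcinoma.

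Total counts per tumour ranged from 23565432 to 31152826. Levels are given in CPM, the counts scaled to a library of equal size, after TMM scaling, a correction for differences in library composition, and 3 counts, taken as the smallest level that can be told from 0, corresponded to between 0.0839 and 0.143 CPM. This floor covers counting error only. Sox2 checked the labels: it had 0.716, 0.508 and 0.238 CPM in the Ivl:BRAFV600E tumours and 182, 155 and 158 CPM in the SOX2LSL tumours (adjusted p = 8.1e-04, edgeR's quasi-likelihood test). Markers of suprabasal keratinocytes (Krt1, Krt10, Lor and 5 others) summed to between 79940 and 94750 CPM in the Ivl:BRAFV600E tumours and to between 2863 and 26700 CPM in the SOX2LSL tumours, whereas the sums of 7 basal markers, most of which was Krt14, overlapped, from 17770 to 35860 CPM and from 12730 to 27760 CPM. Of the 8 suprabasal markers, Sbsn and Dsg1a were called lower (edgeR adjusted p = 0.0267 and 0.0491), and 7 were lower in every SOX2LSL tumour. Over all genes tested, 3.9% were called and 25.7% had an unadjusted p below 0.05. None of the 7 basal markers was called, 6 had a positive log2 fold change (median 0.67), 4 had an unadjusted p below 0.05, and Krt15, Itga6 and Itgb4 were higher in every SOX2LSL tumour. SOX2LSL tumour 1 stood apart with the lowest suprabasal sum, 2863 CPM against 19530 and 26700 CPM in the other two. Sums of 12 skeletal muscle markers ranged from 4.43 to 7.98 CPM in the Ivl:BRAFV600E tumours and from 284 to 1240 CPM in the SOX2LSL tumours, and 10 of the 12 passed the test. The immune marker sums ranged from 46.6 to 69.8 CPM and from 105 to 221 CPM, with Ptprc and Csf1r higher by the test. In bulk RNA, fewer cells of a type and less RNA per cell cannot be told apart.

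None of the 9 tested Notch genes passed an adjusted p of 0.05 (0 of 9 by edgeR, DESeq2 and limma alike), where 3.9% of all genes tested did so by edgeR, 2.39% higher and 1.51% lower in the SOX2LSL tumours. DESeq2 called 18.2% of the genes to which it gave an adjusted p (10.5% higher and 7.76% lower), limma 2.98% of all genes tested (1.51% higher and 1.47% lower), and the smallest DESeq2 adjusted p of the 9 was 0.0503, for Hes1. At an unadjusted p below 0.05 the count was 4 of 9 by each of the 3 tools, against 25.7% of all genes tested by edgeR. By edgeR it was 2 with sex as a covariate and between 1 and 5 with a tumour left out. The 3 tumours of a genotype did not overlap with those of the other for the 4 genes counted in the main fit: Notch1 and Hes1 were below and Hey1 and Lfng above in every SOX2LSL tumour. Over all genes tested, groups did not overlap for 34.2%, with 16% lower and 18.2% higher. Of the 9 log2 fold changes, 7 were negative and 2 positive. Their median was -0.22, against 0.043 over all genes tested. An exact permutation test of a single gene with 3 tumours against 3 cannot go below p = 0.1, so the per-tumour values below are read beside the fit over all genes.

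**Figure D1:**
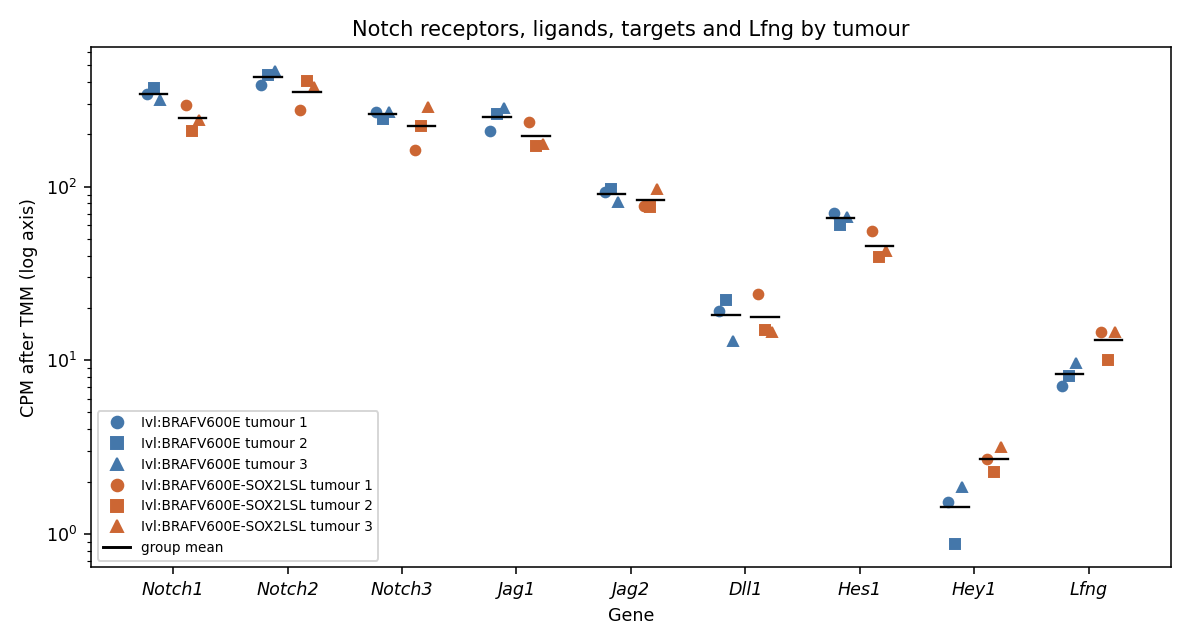
Level of 9 Notch genes in each tumour, in CPM after TMM on a log axis, with Ivl:BRAFV600E tumours in blue, Ivl:BRAFV600E-SOX2LSL tumours in orange, symbols for tumours 1, 2 and 3, and bars for group means. The groups are separate for Notch1, Hes1, Hey1 and Lfng and overlap for the other 5 genes; Hes5, with 0 counts in all 6 tumours, is not drawn.

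Notch1 (ENSMUSG00000026923, chr2:26457903-26516663 of GRCm38, minus strand) encodes a main Notch receptor of the epidermis, which promotes differentiation. It had 342, 370 and 314 CPM in Ivl:BRAFV600E tumours 1, 2 and 3 and 294, 210 and 242 CPM in the SOX2LSL tumours. Each SOX2LSL tumour was below each Ivl:BRAFV600E tumour, with the narrowest gap between SOX2LSL tumour 1 and Ivl:BRAFV600E tumour 3. The group means were 342 ± 28.1 and 249 ± 42.6 CPM (SD, n = 3 each). The log2 fold change of -0.46 (SE 0.16, 95% interval -0.84 to -0.076) had an edgeR p of 0.0251 and an adjusted p of 0.139, so it did not pass over all genes. Without SOX2LSL tumour 1 it was -0.60 with an edgeR adjusted p of 0.0410, which passed.

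Notch2 (ENSMUSG00000027878, chr3:98013527-98150361, plus strand), a receptor also expressed in keratinocytes, had 384, 441 and 463 CPM in the Ivl:BRAFV600E tumours and 278, 404 and 373 CPM in the SOX2LSL tumours. SOX2LSL tumour 1 was the lowest of the 6, and tumour 2 lay within the Ivl:BRAFV600E range. The means of 429 ± 41.1 and 352 ± 65.7 CPM differed by -0.29 on the log2 scale (SE 0.18, interval -0.71 to 0.13, edgeR adjusted p = 0.346). Notch3 (ENSMUSG00000038146, chr17:32120820-32166852, minus strand), which suprabasal keratinocytes and vascular mural cells express, had 269, 247 and 268 CPM against 163, 223 and 288 CPM. The SOX2LSL tumours held both the lowest and the highest of the 6 values. Their SD of 62.4 CPM stood beside 12.6 CPM in the Ivl:BRAFV600E tumours, and the log2 fold change was -0.22 (SE 0.21, interval -0.71 to 0.27, edgeR adjusted p = 0.544). The summed level of 8 mural markers overlapped between the groups, from 252 to 333 CPM and from 241 to 466 CPM, and none was called. Of the 8, 5 had a positive and 3 a negative log2 fold change (median 0.22): Acta2, Mcam and Pdgfrb, at 1.05, 0.75 and 0.72, overlapped between the groups, and Rgs5, Cspg4 and Kcnj8, at -0.72, -0.73 and -0.40, were lower in every SOX2LSL tumour. The part of mural cells in the Notch3 level was not tested.

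Jag1 (ENSMUSG00000027276, chr2:137081456-137116644, minus strand), a ligand for Notch receptors made by keratinocytes and many other cells, had 210, 262 and 284 CPM in the Ivl:BRAFV600E tumours and 236, 172 and 176 CPM in the SOX2LSL tumours. SOX2LSL tumour 1 lay above Ivl:BRAFV600E tumour 1, and the other two were the lowest of the 6. With means of 252 ± 38.2 and 195 ± 35.8 CPM, the log2 fold change was -0.37 (SE 0.18, interval -0.80 to 0.060, edgeR adjusted p = 0.251).

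Jag2 (ENSMUSG00000002799, chr12:112907819-112929776, minus strand), a Jagged ligand of the epidermal basal layer, had 93.5, 96.3 and 81.2 CPM and 77.5, 75.9 and 97.4 CPM. SOX2LSL tumour 3 was the highest of the 6 and the other two the lowest. Jag2 had a log2 fold change of -0.11 (SE 0.15, interval -0.45 to 0.23, edgeR adjusted p = 0.662). Dll1 (ENSMUSG00000014773, chr17:15367354-15376872, minus strand), the Delta-like ligand that human epidermal stem cells carry, had 19.3, 22.3 and 12.8 CPM and 23.9, 14.9 and 14.6 CPM, so the groups spanned nearly the same range. For Dll1 the log2 fold change was -0.026 (SE 0.28, interval -0.68 to 0.63, edgeR adjusted p = 0.966), and its sign turned in 5 of 15 alternative fits, within -0.30 and 0.15. An opposite-strand gene shares 20.6% of the exon bases of Dll1. Since the sources used here do not say whether strand was used in counting, reads of such gene pairs may not have been told apart.

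Lfng (ENSMUSG00000029570, chr5:140607320-140615545, plus strand) encodes Lunatic fringe, a glycosyltransferase that adds sugar to Notch receptors and thereby favours Delta-like over Jagged ligands. It had 7.09, 8.13 and 9.65 CPM in the Ivl:BRAFV600E tumours and 14.6, 9.98 and 14.5 CPM in the SOX2LSL tumours. The groups were separate, although SOX2LSL tumour 2 was close to Ivl:BRAFV600E tumour 3. The means were 8.29 ± 1.28 and 13.0 ± 2.64 CPM. The log2 fold change of 0.65 (SE 0.22, interval 0.14 to 1.17) had an edgeR p of 0.0197 and an adjusted p of 0.124. The other fringe genes, Mfng and Rfng, overlapped between the groups, with log2 fold changes of 0.54 (edgeR adjusted p = 0.304) and 0.068 (edgeR adjusted p = 0.863).

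Hes1 (ENSMUSG00000022528, chr16:30064384-30067796, plus strand), a repressor of transcription and a direct Notch target in suprabasal cells, had 70.7, 59.9 and 66.9 CPM in the Ivl:BRAFV600E tumours and 55.3, 39.5 and 42.4 CPM in the SOX2LSL tumours. As for Notch1, all SOX2LSL values were below all Ivl:BRAFV600E values and SOX2LSL tumour 1 was nearest to the other group. The means were 65.8 ± 5.48 and 45.7 ± 8.45 CPM. The log2 fold change of -0.53 (SE 0.16, interval -0.90 to -0.15) had an edgeR p of 0.0130 and an adjusted p of 0.105, the smallest among the 9 genes. Without SOX2LSL tumour 1 it was -0.69 (edgeR adjusted p = 0.0215). The suprabasal marker sums moved with Notch1 and Hes1 between the genotypes, but not within the SOX2LSL group, where tumour 1 had the lowest suprabasal sum and the highest Notch1 and Hes1 levels. Their part in the levels of either gene was not tested.

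Hey1 (ENSMUSG00000040289, chr3:8663359-8667256, minus strand), a repressor related to Hes1 that is a Notch target in vessels and muscle stem cells, had 1.54, 0.878 and 1.85 CPM in the Ivl:BRAFV600E tumours and 2.69, 2.27 and 3.18 CPM in the SOX2LSL tumours. These rest on 19 to 45 counts in the former and 70 to 96 in the latter. The groups were separate, with means of 1.42 ± 0.497 and 2.71 ± 0.456 CPM. The log2 fold change of 0.93 (SE 0.35, interval 0.11 to 1.74) had an edgeR p of 0.0307 and an adjusted p of 0.153. The sums of 8 endothelial markers overlapped between the groups (153 to 158 CPM and 151 to 175 CPM). Those of 4 tested muscle stem cell markers did not (0.924 to 1.71 CPM and 1.88 to 4.92 CPM), with Myf5 at 3 counts or fewer. None of the 4 was called by edgeR (against 3.9% of all genes tested). Most of the Ivl:BRAFV600E sums was Chrd, which overlapped between the groups (log2 fold change 0.012). Pax7, Myod1 and Cdh15 had positive log2 fold changes and at most 6 counts in any Ivl:BRAFV600E tumour. Within its group, SOX2LSL tumour 3 had the lowest sum of the 4 markers and the highest Hey1. The part of endothelial or muscle stem cells in the Hey1 level was not tested.

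Hes5 (ENSMUSG00000048001, chr4:154960923-154962371, plus strand), a Notch target of neural progenitors, had 0 counts in all 6 tumours and was not tested. A count of 0 allows up to 0.143 CPM in the shallowest tumour after scaling. Of the 3 Hes and Hey genes described so far, Hes1 and Hey1 were thus detected in every tumour and Hes5 in none.

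The stretches before the starts of Hes5, Lfng and Nrarp are shown because RBPJ, the DNA-binding partner of the Notch intracellular domain, can be looked for in them as the motif GTGGGAA, and the SOX family as ACAATG, each on either strand. Nrarp is a Notch target with a genotype difference described further on. The sequences are the 250 bases upstream of each start in RefSeq (GRCm38.p6), all on the plus strand, chr4:154960673-154960922 for Hes5, chr5:140607091-140607340 for Lfng and chr2:25180508-25180757 for Nrarp. Capitals mark a motif or its reverse complement, TTCCCAC or CATTGT:
Hes5: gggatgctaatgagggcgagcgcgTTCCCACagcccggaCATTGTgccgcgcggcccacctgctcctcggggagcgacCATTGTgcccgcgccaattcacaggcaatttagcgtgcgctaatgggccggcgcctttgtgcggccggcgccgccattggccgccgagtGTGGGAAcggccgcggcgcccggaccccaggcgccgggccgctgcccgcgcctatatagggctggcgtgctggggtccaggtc
Lfng: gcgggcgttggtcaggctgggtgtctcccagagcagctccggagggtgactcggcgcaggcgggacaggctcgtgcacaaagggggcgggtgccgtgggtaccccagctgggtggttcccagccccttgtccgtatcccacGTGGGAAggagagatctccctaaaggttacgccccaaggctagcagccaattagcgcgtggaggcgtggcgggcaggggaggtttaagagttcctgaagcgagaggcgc
Nrarp: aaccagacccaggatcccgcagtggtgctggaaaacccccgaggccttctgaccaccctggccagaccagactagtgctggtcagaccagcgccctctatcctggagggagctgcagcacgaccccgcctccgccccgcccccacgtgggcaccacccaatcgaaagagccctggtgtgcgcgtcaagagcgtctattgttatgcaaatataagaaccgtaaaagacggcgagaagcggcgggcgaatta
Hes5, with no counts, held GTGGGAA at 83 and, on the other strand, 226 bases upstream, and CATTGT at 211 and 172 bases upstream. Lfng held GTGGGAA at 109 bases upstream and no SOX motif. Nrarp held neither set of letters in this window. Lfng was added to the genes displayed after the search. Over windows reaching from 250 bases before to 50 after the start, 8 of the 10 Notch genes had an entry, and Hes1 and Hey1 had none. Of the 8, Hes5 and Lfng held GTGGGAA, and Hes5, Jag1 and Dll1 held ACAATG. Among 32851 such promoters 6.38% held GTGGGAA and 12.6% ACAATG on either strand. A match describes the letters and is not a measured binding site.

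Levels were compared between genes as CPM per kb of exon. In the Ivl:BRAFV600E tumours Jag1 was highest with 43.2 ± 6.55 CPM per kb (SD, n = 3), followed by Notch2 with 39.8 ± 3.81, Notch3 with 32.3 ± 1.56, Hes1 with 32.3 ± 2.69 and Notch1 with 24.0 ± 1.98 CPM per kb. Jag2 had 13.0 ± 1.15, Dll1 4.30 ± 1.15, Lfng 3.31 ± 0.512 and Hey1 0.436 ± 0.152 CPM per kb. Neighbours in this order overlapped for Jag1 and Notch2, Notch3 and Hes1, and Dll1 and Lfng, and the other neighbours were separate. This order depends on the length used. By the longest transcript, chosen for these levels after the data were seen, Hes1 (44.8 ± 3.73 CPM per kb) was level with Jag1 (44.9 ± 6.81) and above Notch2 (40.9 ± 3.91), and Notch1 (36.0 ± 2.96) stood above Notch3 (32.6 ± 1.58), with overlap between neighbours among these 5. In the SOX2LSL tumours the order was the same down to Jag2, with Jag1 at 33.4 ± 6.15, Notch2 at 32.6 ± 6.10, Notch3 at 27.8 ± 7.71, Hes1 at 22.5 ± 4.15, Notch1 at 17.5 ± 3.0 and Jag2 at 12 ± 1.72 CPM per kb. Neighbours among the first 5 genes overlapped there, and by the longest transcript Hes1 (31.2 ± 5.75 CPM per kb) stood above Notch3 (28.0 ± 7.78), again with overlap. Lfng (5.2 ± 1.05 CPM per kb) stood above Dll1 (4.23 ± 1.26) in mean, but the pair overlapped, and Hey1 was last with 0.830 ± 0.140 CPM per kb.

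The make-up of each family was given as the share of its summed CPM per kb. Notch2 made 40.7 ± 2.81% of receptor RNA in the Ivl:BRAFV600E tumours and 39.6 ± 4.72% in the SOX2LSL tumours, and Notch3 33.1 ± 2.24% and 33.4 ± 5.14%. Notch1 made 24.6 ± 2.12% and 21.8 ± 6.37%, and SOX2LSL tumour 1, with 29.1%, lay above all others. Notch4 made 1.64, 1.80 and 1.10% in the Ivl:BRAFV600E tumours and 6.24, 4.18 and 5.33% in the SOX2LSL tumours, the only receptor whose shares did not overlap between the genotypes. The summed receptor level was 94.4, 99.2 and 99.3 CPM per kb in the Ivl:BRAFV600E tumours and 71.1, 83.3 and 92.1 CPM per kb in the SOX2LSL tumours, again without overlap. Jag1 made 68.9 ± 5.57% and 64.6 ± 3.89% of ligand RNA (with Jag2, Dll1 and Dll4), and the shares of all 4 ligands overlapped.

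Of the Hes and Hey RNA, Hes1 made 90.2, 88.2 and 88.9% in the Ivl:BRAFV600E tumours and 77.6, 79.7 and 80.0% in the SOX2LSL tumours. The groups were separate, and the spread within each was small (SD 1.05 and 1.34 percentage points). Hes6, which counteracts Hes1 in other tissues, made 4.79 ± 1.25% and 12.4 ± 3.45%, and Hey1 1.19 ± 0.367% and 2.98 ± 0.707%, both also without overlap. The log2 ratio of Hes1 to Hey1 per kb was 6.21, 6.77 and 5.85 in the Ivl:BRAFV600E tumours and 5.05, 4.80 and 4.42 in the SOX2LSL tumours. These shares follow from the levels above and carry no further test.

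**Figure D2:**
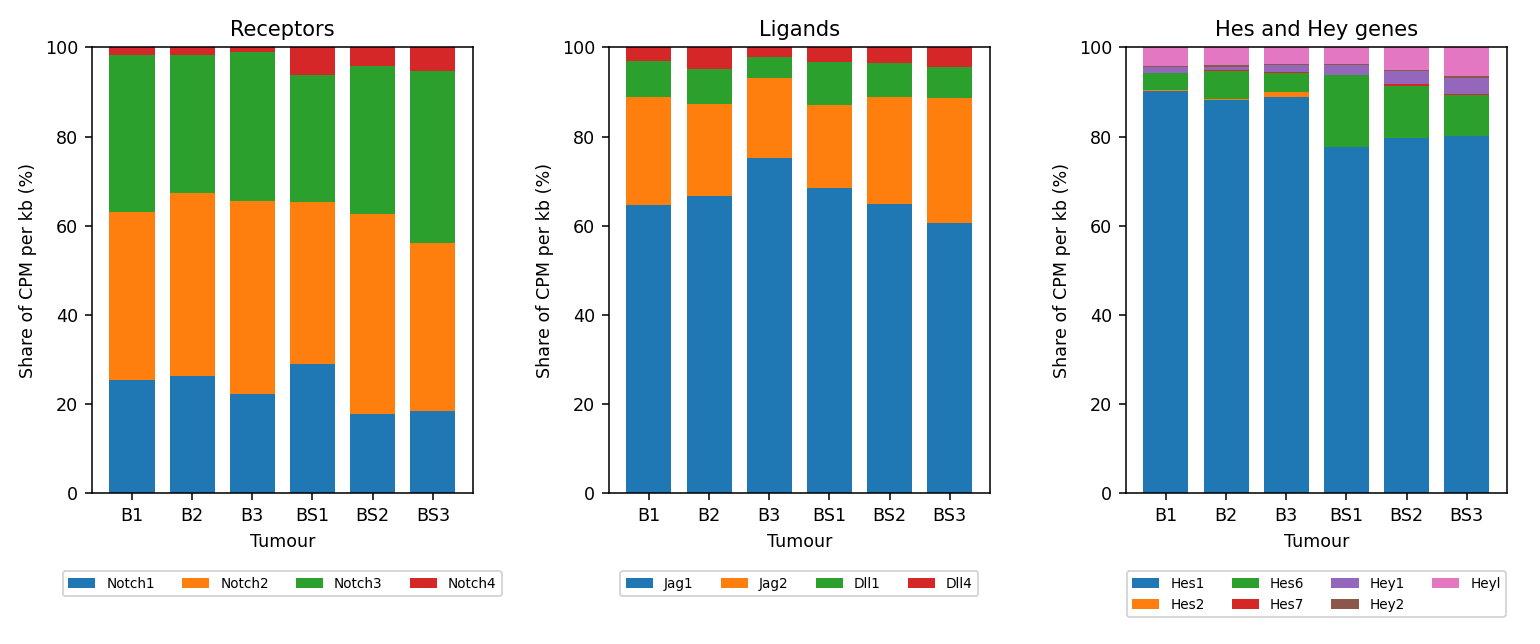
Share of the summed CPM per kb that each gene made of its family in each tumour, for the receptors, the ligands, and the Hes and Hey genes (B1 to B3, Ivl:BRAFV600E tumours 1 to 3; BS1 to BS3, Ivl:BRAFV600E-SOX2LSL tumours 1 to 3). Notch4 and Hes6 took larger shares and Hes1 a smaller share in every SOX2LSL tumour, while Notch2, Notch3 and the ligands overlapped.

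The other genes of the pathway were taken from a list of 58, of which 56 were tested. Of these, 3 were higher and 2 lower in the SOX2LSL tumours at an edgeR adjusted p below 0.05, against 3.9% of all genes tested, and 23 had an unadjusted p below 0.05, against 25.7%. DESeq2 called 10 higher and 6 lower and limma 1 higher and 2 lower. Groups did not overlap for 32 of the 56 (21 higher, 11 lower), against 34.2% of all genes tested. The median log2 fold change was 0.19, or 0.15 with the 2 genes at 0 counts in every Ivl:BRAFV600E tumour (Dner and Dlk1) set to the floor of 3 counts, against 0.043 over all genes tested. By role, the genes called by edgeR were 1 receptor, 1 of 5 ligand ubiquitin ligases, 1 of 7 gamma-secretase genes, 1 of 7 genes of the nuclear complex and 1 of 6 tested targets. By edgeR no call fell among the 10 corepressors (DESeq2 called 2 higher and 1 lower), where Ctbp1 had a log2 fold change of 0.42 (edgeR adjusted p = 0.071) and Tle3 of -0.69 (edgeR adjusted p = 0.104), nor among the 4 Deltex genes (1 higher by DESeq2), the 5 inhibitor and turnover genes (1 lower by DESeq2) and the 2 sheddases Adam10 and Adam17. Dll3 and Hes3 had at most 2 counts in any tumour.

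Notch4 (ENSMUSG00000015468, chr17:34564268-34588503, plus strand), a receptor known from endothelial cells, had 12.5, 14.4 and 8.79 CPM in the Ivl:BRAFV600E tumours and 35.7, 28.1 and 39.5 CPM in the SOX2LSL tumours. It rose 2.89-fold (log2 fold change 1.53, SE 0.23, edgeR adjusted p = 0.0253), in contrast to Notch1, Notch2 and Notch3, none of which passed. None of the 8 endothelial markers was called by edgeR (against 3.9% of all genes tested) and 2 had an unadjusted p below 0.05 (against 25.7%), and their sums overlapped as given above, while Pecam1 was higher and Kdr lower in every SOX2LSL tumour. The part of endothelial cells in the Notch4 level was not tested.

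Nrarp (ENSMUSG00000078202, chr2:25180758-25183339, plus strand), a target that in turn dampens Notch signalling, had 45.0, 52.2 and 53.0 CPM in the Ivl:BRAFV600E tumours and 19.9, 23 and 28 CPM in the SOX2LSL tumours. The groups were far apart against their spread, 50.1 ± 4.40 and 23.7 ± 4.09 CPM. It was 2.12-fold lower (log2 fold change -1.08, SE 0.16, edgeR adjusted p = 0.0255), so that Nrarp and Hes1 both lay lower in every SOX2LSL tumour while Hey1 lay higher. The sums of suprabasal markers were also lower in every SOX2LSL tumour, and within that group they had the same order as Nrarp (2863, 19530 and 26700 CPM in tumours 1, 2 and 3). Their part in the Nrarp level was not tested. The antisense gene Gm38287 covers 79.4% of the exon bases of Nrarp and had 0 counts in all 6 tumours.

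Maml3 (ENSMUSG00000061143, chr3:51685907-52105076, minus strand), a Mastermind coactivator of the nuclear complex, had 57.2, 64.2 and 60.4 CPM and 39.1, 39.9 and 39.8 CPM. It fell by 0.61 on the log2 scale (SE 0.11, edgeR adjusted p = 0.0335), while Maml1 and Maml2 had log2 fold changes of 0.43 (edgeR adjusted p = 0.0726) and 0.99 (edgeR adjusted p = 0.131) and lay higher in every SOX2LSL tumour. Rbpj itself had a log2 fold change of 0.47 (edgeR adjusted p = 0.159).

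Psen2 (ENSMUSG00000010609, chr1:180227004-180263438, minus strand), a catalytic subunit of gamma-secretase, had 2.35, 1.71 and 2.23 CPM and 9.93, 5.18 and 5.89 CPM. It rose 3.33-fold (log2 fold change 1.74, SE 0.32, edgeR adjusted p = 0.0362). Neurl1a (ENSMUSG00000006435, chr19:47178820-47259441, plus strand), an E3 ubiquitin ligase that acts on ligands, had 0.784, 0.785 and 0.618 CPM and 2.27, 3.82 and 1.84 CPM. It rose 3.60-fold (log2 fold change 1.85, SE 0.37, edgeR adjusted p = 0.0452).

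**Figure D3:**
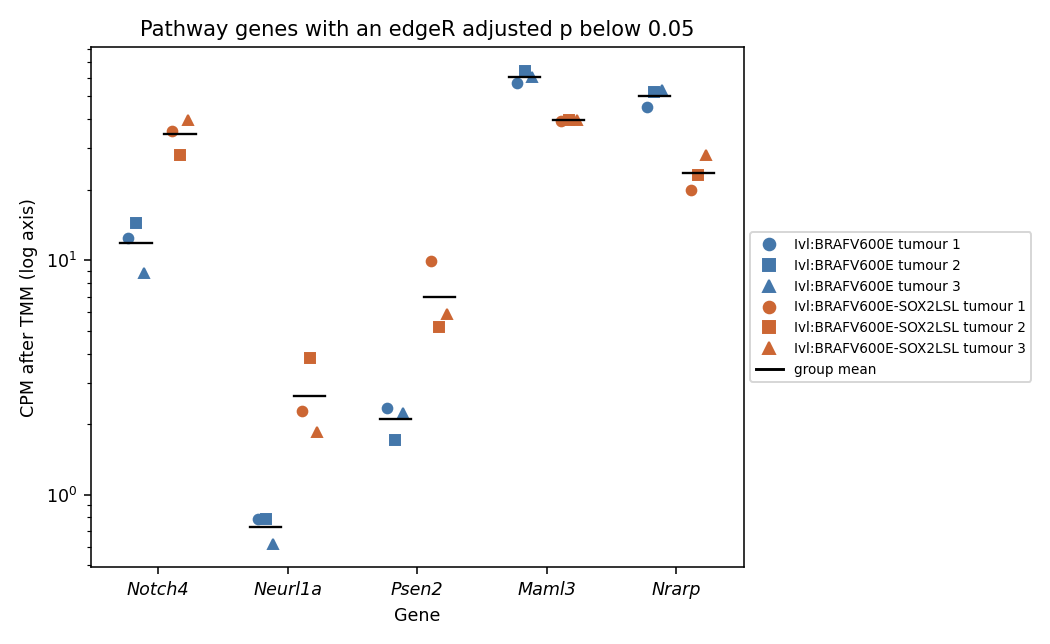
Level of the 5 pathway genes with an edgeR adjusted p below 0.05 in each tumour, in CPM after TMM on a log axis, with Ivl:BRAFV600E tumours in blue, Ivl:BRAFV600E-SOX2LSL tumours in orange and bars for group means. Notch4, Neurl1a and Psen2 are higher and Maml3 and Nrarp lower in every SOX2LSL tumour.

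Without SOX2LSL tumour 1, which stood apart by its suprabasal markers, all 5 of these genes were still called. Without any 1 of the Ivl:BRAFV600E tumours, no pathway gene was called, and without SOX2LSL tumour 2 or 3 only Notch4 or only Nrarp was called. Over these fits the log2 fold change ranged from 1.36 to 1.69 for Notch4, from -1.22 to -0.97 for Nrarp, from -0.66 to -0.57 for Maml3, from 1.39 to 1.91 for Psen2 and from 1.49 to 2.06 for Neurl1a. With sex as a covariate only Notch4 of the 5 was called (edgeR adjusted p = 0.0211), while the log2 fold changes of the others were -1.05 for Nrarp, -0.61 for Maml3, 1.64 for Psen2 and 1.74 for Neurl1a.

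A further 5 pathway genes had listed values that did not overlap and a log2 fold change above 1 in size without passing the edgeR test. By DESeq2, 2 of 5 ligand ubiquitin ligases, 1 of 4 Deltex genes and 1 target were called higher, and 2 targets lower. These calls include Neurl1a and Nrarp, which edgeR also called. Neurl3, a Neuralized ubiquitin ligase, had 1.88, 2.91 and 2.90 CPM and 8.03, 4.63 and 5.34 CPM (log2 fold change 1.23, edgeR adjusted p = 0.0702). Dtx4, a Deltex ubiquitin ligase, had 3.96, 2.45 and 4.32 CPM and 13.2, 5.31 and 7.37 CPM (log2 fold change 1.27, edgeR adjusted p = 0.105). Hes6 had 2.69, 3.74 and 2.85 CPM and 10.2, 5.18 and 4.37 CPM (log2 fold change 1.09, edgeR adjusted p = 0.123). In all of these 3, SOX2LSL tumour 1 was the highest. Dner, a neural non-canonical ligand, had 0 counts in every Ivl:BRAFV600E tumour and 13, 2 and 8 counts in the SOX2LSL tumours (edgeR adjusted p = 0.104), and with 2 counts SOX2LSL tumour 2 cannot be told from 0, so its groups are not separate at the floor of 3 counts. Hes2 had 4, 4 and 23 counts and then 1, 0 and 1 counts (edgeR adjusted p = 0.0947), and no fold is given for either gene at such counts.

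**Figure D4:**
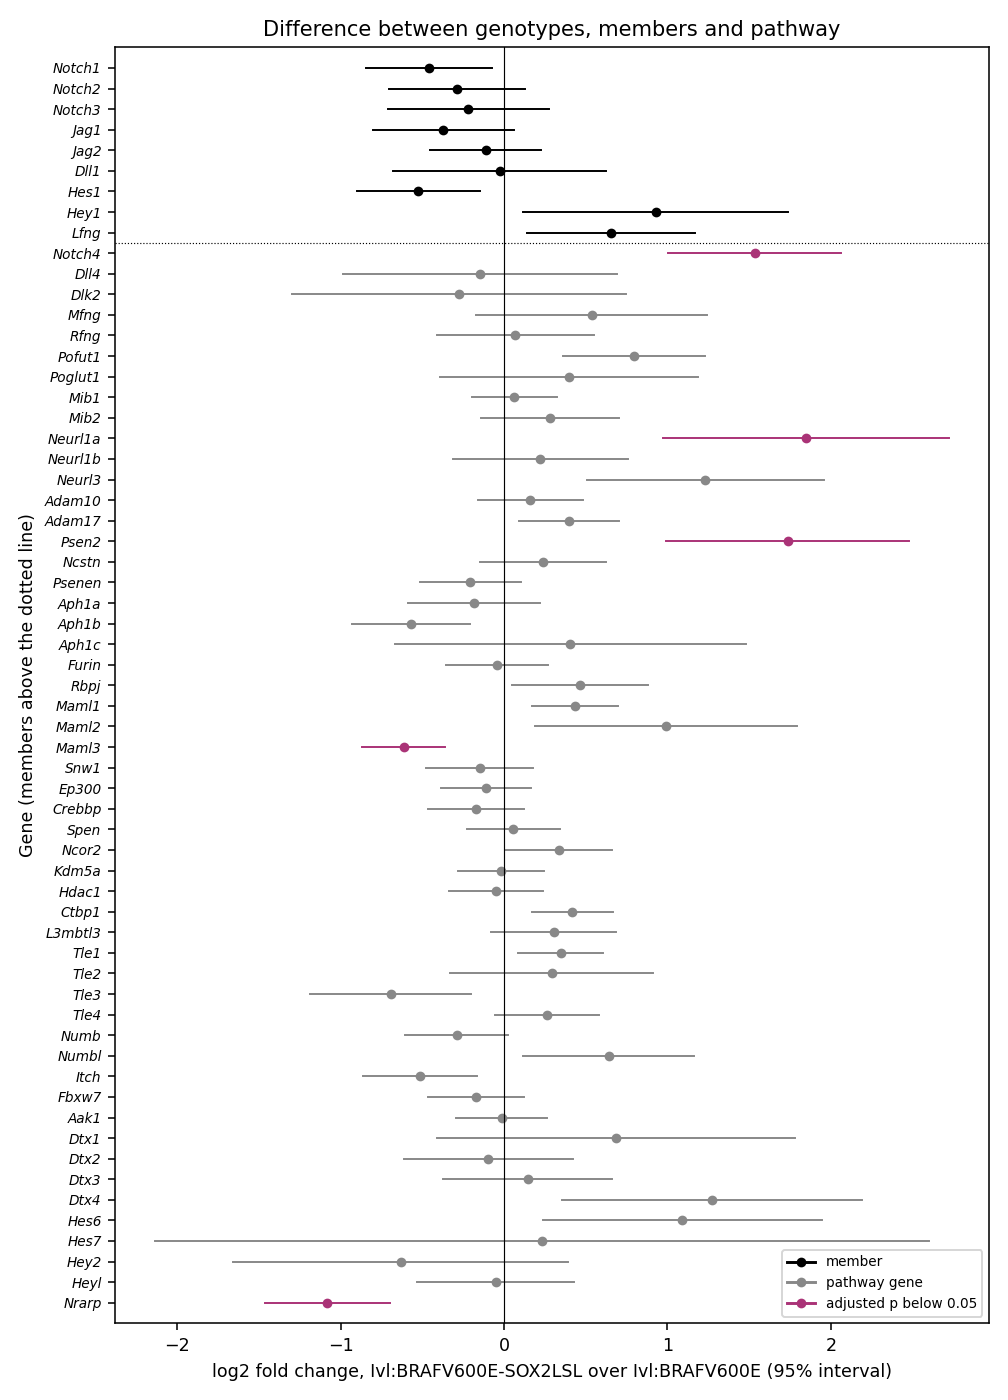
Log2 fold change of Ivl:BRAFV600E-SOX2LSL over Ivl:BRAFV600E tumours with its 95% interval from edgeR, for the 9 tested Notch genes (above the dotted line, black) and other pathway genes (grey, or purple where the adjusted p was below 0.05). Of the 9, only the intervals of Notch1, Hes1, Hey1 and Lfng leave out 0; Dner, Dlk1 and Hes2, which were at or near 0 counts in a group, are not drawn.

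Genes tied to Notch signalling in the epidermis were given by a list of 8. Of these, 0 were called by edgeR (3.9% of all genes tested) and 3 had an unadjusted p below 0.05 (25.7% of all genes tested). The groups did not overlap for 4 of the 8, all lower in the SOX2LSL tumours (34.2% of all genes tested, 16% lower). Hr had 733, 552 and 687 CPM in the Ivl:BRAFV600E tumours and 84.1, 191 and 278 CPM in the SOX2LSL tumours (log2 fold change -1.83, edgeR adjusted p = 0.0543). Krt10, a keratin of spinous cells, had 28860, 36340 and 31850 CPM in the Ivl:BRAFV600E tumours and 424, 3994 and 7214 CPM in the SOX2LSL tumours (log2 fold change -3.06, edgeR adjusted p = 0.0935). Krt1 had a log2 fold change of -2.24 (edgeR adjusted p = 0.149), with 1010 CPM in SOX2LSL tumour 1 and at least 11870 CPM in the other two. Cdkn1a, a cell cycle inhibitor, was lower in every SOX2LSL tumour by a log2 fold change of only -0.29 (edgeR adjusted p = 0.280). Trp63, the master regulator of basal keratinocytes, overlapped between the groups, with a log2 fold change of 0.098.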

How the data were processed

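The authors trimmed reads of ribosomal RNA-depleted libraries with Trim Galore after FastQC 0.11.8, aligned them to GRCm38 with HISAT2 2.1.0, counted them with featureCounts (Subread 1.6.3), per the labels, and deposited raw counts per gene for 7 tumours. Use of strand is not given in the sources used here. Groups came from the mouse names in the columns, and 1 column that matched no listed mouse was not used, leaving 3 tumours against 3. The fit had been designed for 4 against 3.

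Genes reaching 5 reads in 1 tumour or more were scaled by TMM and tested for genotype with edgeR 4.0.16 (quasi-likelihood, Benjamini-Hochberg over 24433 genes) in R 4.3.3. CPM per kb used the union exon length of GENCODE M21. Total counts were 23565432 to 31152826 per tumour, and the biological coefficient of variation was 0.372. The scripts were tested on simulated counts. Alternatives were DESeq2 1.42.0, limma 3.58.1 (voom), other scalings and filters, sex as covariate, gene removals, longest transcript lengths and each tumour left out.

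Named were the 10 Notch genes, pathway genes that were called or separate with an absolute log2 fold change above 1, Sox2 and marker sums. The genes and lists were chosen with earlier results of these data known. Some results under this rule are left out here.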

Additional observations from a re-analysis of the deposited data

How the results depend on the processing

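For the 10 Notch genes, no call was made under any of the 9 alternatives that kept all 6 tumours (other scalings, filters, DESeq2, limma, sex, gene removals), and between 0 and 2 with a tumour left out. The 2 were Notch1 and Hes1 without Ivl:BRAFV600E-SOX2LSL tumour 1. The 4 Notch genes whose groups did not overlap became 3 with upper-quartile scaling and between 4 and 6 with a tumour left out. At an unadjusted edgeR p below 0.05, 4 genes became 5 with upper-quartile scaling and 2 with sex as a covariate. With a tumour left out they became 2, 1 and 4 (Ivl:BRAFV600E tumours 1, 2 and 3) and 5, 3 and 1 (SOX2LSL tumours). Over all genes, 6280 became 4543 with sex and 4306 to 5832 with a tumour left out. Dll1 turned positive with sex as a covariate (log2 fold change 0.042), without Ivl:BRAFV600E tumour 1 (0.020) or 2 (0.15), and without SOX2LSL tumour 2 (0.086) or 3 (0.10), with a range of -0.30 to 0.15 over the tumours left out, and the cause was not tested. The other 8 tested Notch genes kept their sign in all 15 alternatives. With a tumour left out, the log2 fold change ranged from -0.43 to -0.036 for Notch3 and from -0.40 to -0.15 for Notch2. The 5 pathway calls became 16 with DESeq2 (10 higher, 6 lower), 3 with limma, 1 with sex as a covariate and between 0 and 6 with a tumour left out: 0 without any 1 of the Ivl:BRAFV600E tumours, and 6, 1 and 1 without SOX2LSL tumours 1, 2 and 3. The 954 calls over all genes became 1759 without a filter, 3653 with DESeq2, 228 with sex and 22 to 1575 with a tumour left out (22, 50 and 179 without the Ivl:BRAFV600E tumours, 1575, 202 and 412 without the SOX2LSL tumours). By the longest transcript in place of all exons, receptor shares were 32.4% for Notch1, 36.7% for Notch2 and 29.3% for Notch3 in the Ivl:BRAFV600E tumours and 28.6% for Notch1 in the SOX2LSL tumours, from 24.6, 40.7, 33.1 and 21.8%, and thus the order of Notch1 and Notch3 in the Ivl:BRAFV600E tumours turned. No paired analysis was possible because the columns carry no replicate number. Depth limits statements on Hes2, Hes3, Hes5, Hes7, Dll3, Dlk1 and Dner.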
